A study of Homo sapiens with 4 samples.

Results

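The genes described here were 61 RAB small GTPases among the 35211 genes of the deposited table. Members were the rows whose symbol was RAB followed by a number and at most 1 further letter, and a further gene of that form was not analysed here. RNA was measured in 4 libraries from PC3 and DU145, which are long-established lines of human prostate cancer cells. A plasmid that overexpresses circ0003553, or a negative control plasmid, had been introduced into each line. Each of the 4 groups (PC3 with circ0003553, PC3 control, DU145 with circ0003553, DU145 control) had 1 library. All 4 groups were therefore transfected cells, and no untransfected cells were analysed here. The sources used here give neither the plasmid's promoter nor the time after transfection.

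RAB proteins are molecular switches that bind GTP when active and GDP when inactive. A prenyl anchor lets them insert into a membrane, where the GTP-bound form recruits effectors such as tethers, motors and fusion factors. Different RABs mark different compartments, so that vesicles leaving the endoplasmic reticulum, the Golgi, endosomes or lysosomes reach their target. Guanine nucleotide exchange factors switch RABs on, GTPase-activating proteins switch them off, and GDP dissociation inhibitors carry the inactive form through the cytosol. Many RABs occur as close paralogs with partly shared roles.

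The libraries held 39488890 counts (PC3 with circ0003553), 33438509 counts (PC3 control), 36461229 counts (DU145 with circ0003553) and 38047428 counts (DU145 control). Low counts were mostly even (70.3% to 75.3% of values from 1 to 20), so a read pair may often have been counted as 2, and intervals from halved counts were computed as well. The epithelial markers KRT8, KRT18 and EPCAM were between 29.6 and 446.8 RPKM in all 4 libraries. HOXB13, a marker of the PC3 line, was 32.4 and 36.3 RPKM in the PC3 libraries and 0.0158 and 0 RPKM in the DU145 libraries. CDH1 and VIM were listed with HOXB13 as markers of line identity. CDH1 was 0.443 and 0.407 RPKM in PC3 and 11.0 and 20.5 RPKM in DU145 (circ0003553 and control), so not every epithelial gene was high in both lines. VIM was 76.5 and 65.8 RPKM in PC3 and 154.0 and 122.5 RPKM in DU145. Among markers of other cells, the 4 leukocyte genes found summed to 0.429 and 0.555 RPKM in PC3 and 0.349 and 0.318 RPKM in DU145, with PTPRC at or below 0.00715 RPKM in every library. The 3 endothelial genes summed to 1.94 and 2.27 RPKM in PC3 and 0.105 and 0.0653 RPKM in DU145, and the 4 fibroblast genes to 4.01 and 3.58 RPKM in PC3 and 0.356 and 0.588 RPKM in DU145. Both of these sums were higher in PC3, where each came mostly from 1 gene. PECAM1 was 1.94 and 2.25 RPKM in PC3. VWF had 0 counts in both PC3 libraries and 14 and 2 counts in DU145, and CDH5 had 0 and 3 counts in PC3 and 4 and 6 counts in DU145. COL1A1 was 3.92 and 3.51 RPKM in PC3, and COL1A2, DCN and LUM were at most 0.0673 RPKM in any library. The part of these genes in the line differences was not tested. RCAN3, the gene named in the sample titles, had 3798 counts with circ0003553 and 1212 counts with the control plasmid in PC3, and 816 and 639 counts in DU145. Reads counted per gene can come from circular RNA, linear RNA or the plasmid, so RCAN3 is no measure of the circular product.

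Sequences upstream of 4 RAB genes are shown because the results turn on them: RAB4A and RAB7B were lower with the circ0003553 plasmid, and RAB22A and RAB31 are paralogs that exchanged places between the lines. Each is given 5′ to 3′ on the gene's own strand, from RefSeq (GRCh38.p14), and stops where an annotated exon begins. CG dinucleotides, the sites at which human promoters can be methylated, are in capitals.
RAB4A: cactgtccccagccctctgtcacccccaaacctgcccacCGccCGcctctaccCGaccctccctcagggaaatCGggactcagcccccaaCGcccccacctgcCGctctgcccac
RAB7B: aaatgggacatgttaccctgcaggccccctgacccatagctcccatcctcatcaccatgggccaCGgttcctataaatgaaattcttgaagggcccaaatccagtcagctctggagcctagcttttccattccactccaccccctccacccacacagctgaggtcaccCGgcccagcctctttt
RAB22A: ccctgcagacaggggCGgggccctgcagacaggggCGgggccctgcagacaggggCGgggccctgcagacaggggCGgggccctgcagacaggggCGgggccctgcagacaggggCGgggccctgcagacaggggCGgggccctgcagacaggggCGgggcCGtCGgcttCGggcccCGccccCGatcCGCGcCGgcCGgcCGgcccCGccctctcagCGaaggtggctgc
RAB31: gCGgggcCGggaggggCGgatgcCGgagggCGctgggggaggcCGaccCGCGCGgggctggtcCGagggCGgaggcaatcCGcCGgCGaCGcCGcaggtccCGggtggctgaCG
The RAB4A sequence is chr1:229270861-229270975 (plus strand, 115 bases, 6 CG). The RAB7B sequence is chr1:206003462-206003645 (minus strand, 184 bases, 2 CG). The RAB22A sequence is chr20:58309465-58309695 (plus strand, 231 bases, 20 CG), and the RAB31 sequence is chr18:9708051-9708164 (plus strand, 114 bases, 18 CG). These stretches differ in length and leave out exon bases. Over the full 250 bases upstream of the start, the counts were 31 CG (RAB4A), 4 CG (RAB7B), 22 CG (RAB22A) and 40 CG (RAB31). RAB22A's sequence opens with a unit of 20 bases repeated 8 times in a row, each copy with a CG. In the RAB7B sequence the letters tataaa occur, their first base 113 bases upstream of the annotated exon at which the sequence stops. The RefSeq start, from which the 250 bases were counted, lies farther downstream.

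Over the 250 bases upstream of the start, 47 members had a RefSeq sequence, with a median of 20 CG, against 11 CG over 35114 windows of all genes. Each member was counted at its most upstream start only, whereas the 35114 windows came from 27303 genes, some with more than 1 start. Of these 47 members, 11 had fewer than 11 CG, and 9 of those 11 averaged under 5 RPKM over the 4 libraries. RAB13 (128.8 RPKM) and RAB34 (12.5 RPKM) were the other members poor in CG. Median level was 0.496 RPKM over the members poor in CG and 6.92 RPKM over the other 36 members. Of those 36 members, 15 averaged under 5 RPKM. Across the 47 members, the Spearman correlation of CG count with mean RPKM was 0.44, a description across genes that share the same libraries. On either strand, TATAAA was found in 6.38% of member windows against 10.7% of all windows and CCAAT in 25.5% against 32.0%.

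Levels between genes were compared as RPKM, counts scaled by gene length and library total, as deposited. Summed over the members, the level was 643.8 RPKM in PC3 with circ0003553, 642.8 RPKM in the PC3 control, 711.3 RPKM in DU145 with circ0003553 and 779.8 RPKM in the DU145 control. Both PC3 libraries were below both DU145 libraries in this sum. The members took 0.227%, 0.227%, 0.258% and 0.281% of all counts in the same order of libraries. RAB13, which directs vesicles to the plasma membrane and tight junctions, was the highest member in every library, at 96.8 and 100.6 RPKM in PC3 and 145.0 and 172.9 RPKM in DU145 (circ0003553 and control plasmid in each line). The 10 highest members in a library held 69.2% to 71.1% of the summed RPKM.

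RAB7A, which brings late endosomes to lysosomes, came next at 91.5 and 77.0 RPKM in PC3 and 106.9 and 95.3 RPKM in DU145. RAB1B, of transport from the endoplasmic reticulum to the Golgi, was at 68.2 and 74.1 RPKM in PC3 and 49.9 and 57.5 RPKM in DU145. Its paralog RAB1A was lower in every library, at 17.7 and 18.7 RPKM in PC3 and 12.4 and 16.9 RPKM in DU145. These 3 genes serve steps that nearly every cell uses.

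RAB10, which moves exocytic vesicles to the plasma membrane, ranged from 39.6 to 50.9 RPKM over the 4 libraries. RAB11B, of the recycling endosome, ranged from 34.2 to 41.7 RPKM, and RAB8A, of exocytosis and ciliary transport, from 25.9 to 41.5 RPKM. The other members of the top 10 by mean level were RAB6A (24.9 to 32.1 RPKM), which acts at the Golgi, RAB12 (17.4 to 22.6 RPKM) and RAB15 (13.5 to 18.1 RPKM). RAB8A was above RAB6A in both PC3 libraries (41.5 and 37.6 against 24.9 and 26.8 RPKM) and below it in both DU145 libraries (25.9 and 31.4 against 30.4 and 32.1 RPKM). RAB10 and RAB11B lay close in PC3 (39.6 and 39.7 against 39.9 and 41.7 RPKM), and RAB10 was above RAB11B in DU145 (42.4 and 50.9 against 34.2 and 37.3 RPKM).

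At the low end, 6 members had too few counts to be tested: RAB44, RAB33A, RAB39A, RAB25, RAB19 and RAB1C, each with at most 10 counts in any library. RAB25, an epithelial relative of RAB11, had 4 and 6 counts in PC3 and 9 and 9 counts in DU145. Between 38 and 41 members reached 1 RPKM in a library and 15 to 20 reached 10 RPKM. RAB6C shared 32.5% of its 100-base windows with other loci, mostly RAB6D (28.6%), and RAB43 shared 30.3%, so their counts may be split among copies. Exon bases of 28 members overlapped another gene, among them RAB43 (79.3% of its length, with ISY1-RAB43), RAB23 (57.7%, with BAG2), RAB24 (44.8%, with MXD3) and RAB8A (37.8%, with CTD-2231E14.8). The sources used here do not say whether the counting used strand, so reads of such genes cannot be assigned to a single gene.

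**Figure D1:**
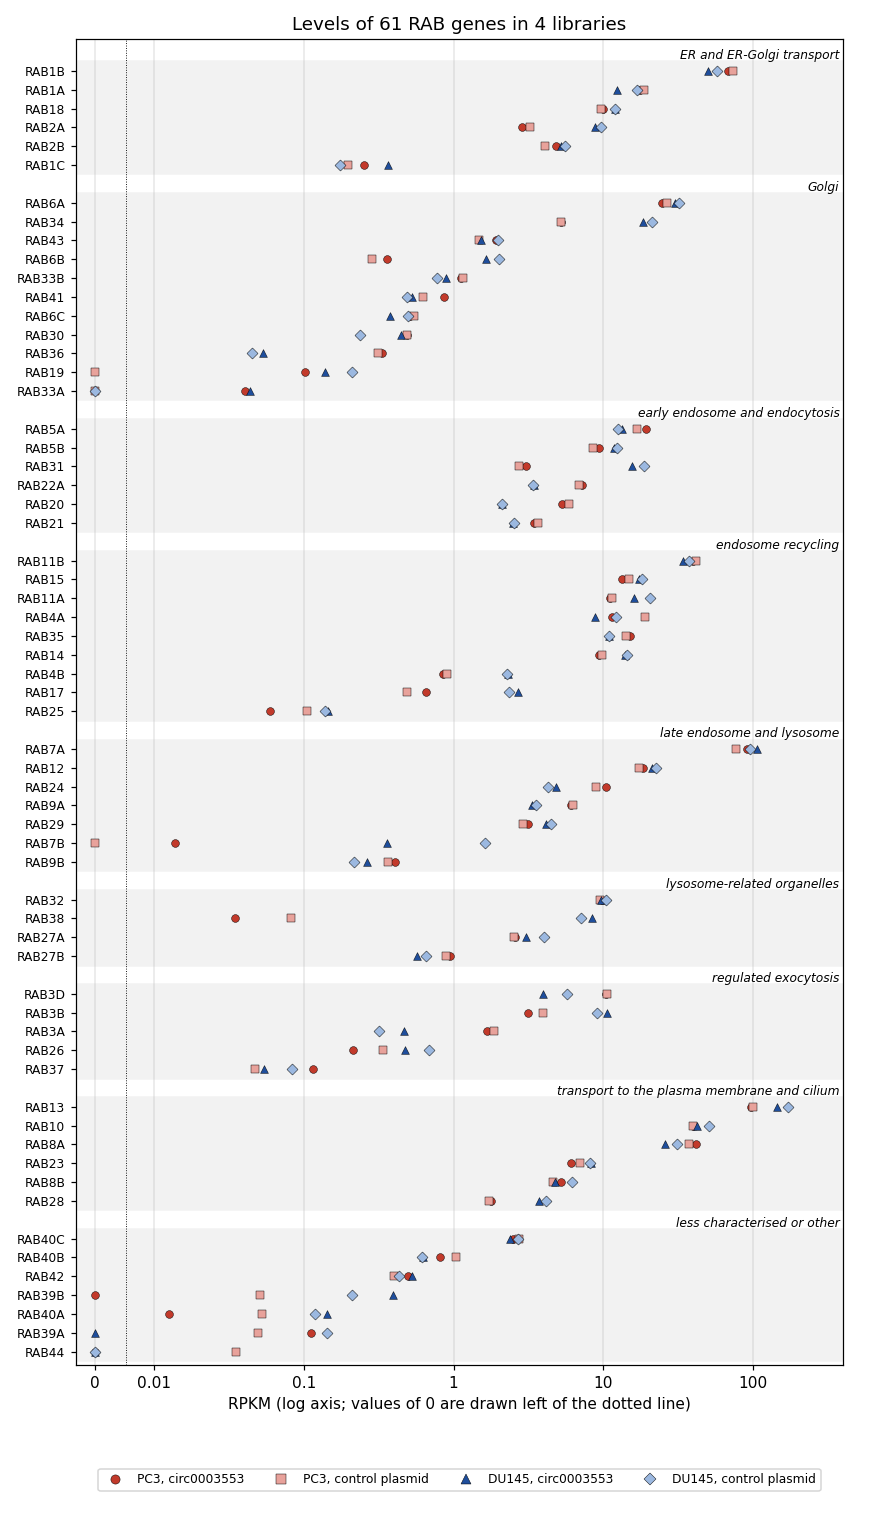
Deposited RPKM (log axis) of the 61 RAB genes in the 4 libraries, grouped by the role of each gene, with 1 point per library and no error bars because each group had 1 library. RAB13 and RAB7A lie farthest right in all 4 libraries, while RAB38 and RAB7B are lower in both PC3 libraries than in both DU145 libraries.

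The first comparison asked which RAB genes changed with the circ0003553 plasmid, over both lines. It rested on 4 libraries, 2 per plasmid, with the line as a block, and on edgeR's quasi-likelihood test adjusted over the 21731 genes tested. Of 55 members tested, 2 were lower with circ0003553 and 0 were higher, against a background of 0.069% of all genes tested called lower, 0.396% called higher and 0.465% in either direction. At an unadjusted p under 0.05 there were 4 members, of which RAB7A was higher, and limma-voom and DESeq2 called 0. The median log2 fold change was -0.04 over the members and 0.003 over all genes tested, and 45 of the 55 members lay within 0.25 of 0 on the log2 scale.

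RAB4A, which returns internalised receptors quickly from early endosomes to the cell surface, had 1510 counts with circ0003553 and 2107 counts with the control plasmid in PC3. In DU145 it had 1063 counts with circ0003553 and 1547 counts with the control plasmid. The circ0003553 library was the lower of the pair in both lines. In bulk RNA, fewer cells with a transcript and less of it per cell cannot be told apart. Scaled for library size, the ratio of circ0003553 to control was 0.597 in PC3 (95% interval 0.558 to 0.638) and 0.738 in DU145 (0.682 to 0.798), exact binomial intervals that cover counting error only. RAB4A fell by 0.59 ± 0.11 on the log2 scale (SE, n = 2 libraries per plasmid; edgeR adjusted p = 0.0276). As levels, it was 11.6 RPKM against 19.0 RPKM in PC3 and 8.81 RPKM against 12.3 RPKM in DU145, circ0003553 first.

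Under other settings the adjusted p of RAB4A passed 0.05: it was 0.134 with DESeq2, 0.225 with limma-voom, 0.0668 with edgeR's legacy dispersions and 0.568 without a filter on low counts, and the call was also lost without the line block. The log2 fold change stayed between -0.59 and -0.62 in all of these. RAB4A (chr1:229271062-229305894, plus strand, GRCh38) shared 648 exon bases with SPHAR on the same strand and 309 with RP5-1061H20.3 on the other strand. SPHAR had at most 8 counts in any library. RP5-1061H20.3 had 102 and 104 counts in PC3 and 48 and 107 counts in DU145 (circ0003553 and control), so its part in the RAB4A difference was not tested. Of the 10 nearest tested genes, RP5-1061H20.3 (log2 ratio -1.02) and FTH1P2 (-0.56, 264 and 420 counts) lay below RAB4A (-0.44) in DU145, and the others above it. In PC3 all 10 lay above RAB4A (-0.74), the lowest being RP5-1061H20.3 at -0.29. RAB4B, the close paralog, had 132 and 119 counts in PC3 and 331 and 339 counts in DU145, with a log2 fold change of 0.00 ± 0.18 (adjusted p = 0.999).

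RAB7B, a relative of RAB7A that acts between endosomes and the trans-Golgi network, had 48 counts with circ0003553 and 226 counts with the control plasmid in DU145. In PC3 it had 2 and 0 counts, under what these libraries can compare. The ratio in DU145 was 0.228 (95% interval 0.163 to 0.313, and 0.140 to 0.357 from halved counts). RAB7B fell by 2.04 ± 0.39 on the log2 scale in the fit over both lines (edgeR adjusted p = 0.0266). With almost no counts in PC3, it passed the low-count filter through DU145, and this value rests in effect on 1 DU145 library against 1. Its adjusted p was 0.242 with legacy dispersions, 0.539 without a filter, 0.614 with limma-voom and 0.0573 among genes that share no exon base. The call was also lost without the line block, and DESeq2 gave it no adjusted p. RAB7A, its abundant paralog, had 9814 and 6998 counts in PC3 and 10587 and 9854 counts in DU145, with a log2 fold change of 0.22 ± 0.09 (edgeR adjusted p = 0.522).

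Genes next to RAB7B (chr1:205976740-206003461, minus strand) did not share its difference in DU145. Among its 10 nearest tested neighbours, NUCKS1 had 39892 and 47442 counts, SLC41A1 2368 and 2576 counts and SRGAP2 2406 and 2761 counts with circ0003553 and control in DU145. Their log2 ratios were -0.15, -0.02 and -0.10, against -2.09 for RAB7B, and 0.47 (CTSE) was the highest among the neighbours. RAB29, another RAB gene beside it, which works with the kinase LRRK2, had 589 and 662 counts.

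**Figure D2:**
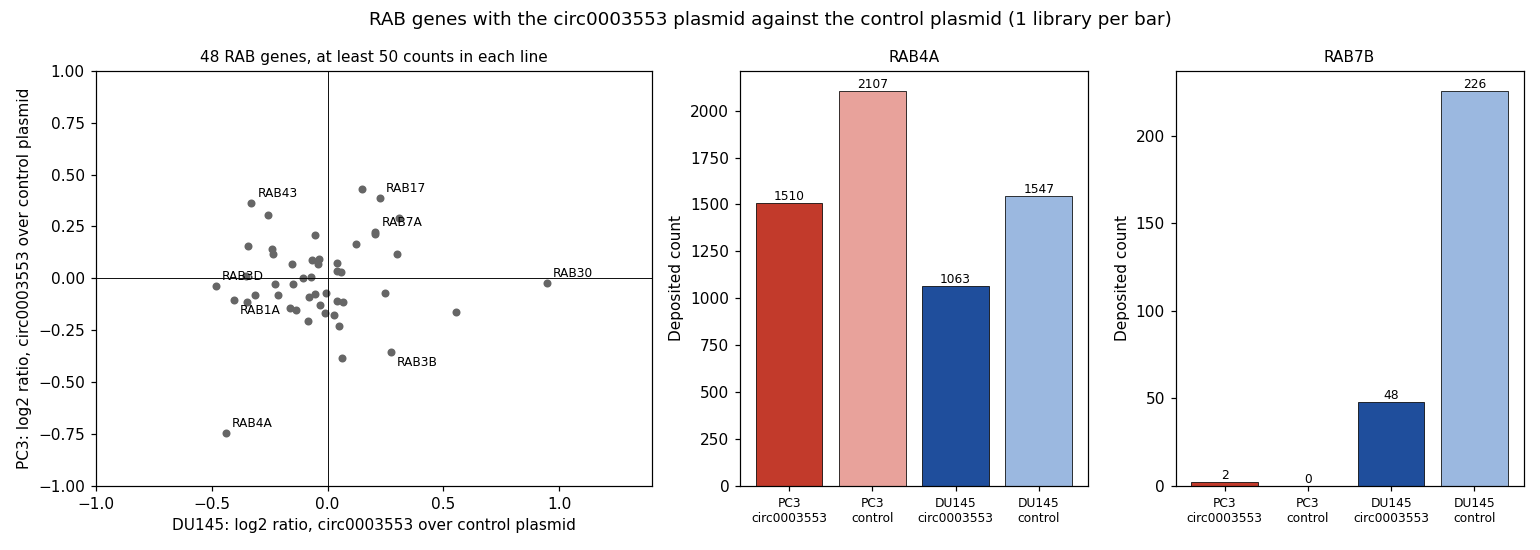
Left, log2 ratio of circ0003553 over control plasmid in DU145 (x axis) and PC3 (y axis) for the 48 RAB genes with at least 50 counts in each line; middle and right, deposited counts of RAB4A and RAB7B, 1 bar per library with no error bars. RAB4A is low in both lines (1510 against 2107 and 1063 against 1547 counts), while RAB7B is low in DU145 (48 against 226 counts) and near 0 in PC3.

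Within a line there was 1 library per plasmid, so no test was made and genes were counted as apart at 1.5-fold or more. In PC3, 0 of 49 members with at least 50 counts were higher with circ0003553 (background 3.51%) and 1 was lower (background 2.4%), which was RAB4A. In DU145, 2 of 52 members were higher (background 4.47%) and 1 was lower (background 4.73%). The higher genes were RAB30, a Golgi RAB, and RAB39B, and the lower gene was RAB7B.

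RAB30 had 192 counts with circ0003553 and 106 with the control plasmid in DU145, a ratio of 1.95 (95% interval 1.53 to 2.49). The PC3 counts of RAB30 were 229 and 194, and their ratio was 0.983 (0.808 to 1.20). RAB39B, a neuronal RAB linked to X-linked intellectual disability, had 50 and 28 counts in DU145, a ratio of 1.92 (1.18 to 3.16), and its halved-count interval of 0.959 to 3.99 took in 1. The RAB39B counts in PC3 were 0 and 6.

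Among members with at least 200 counts in a line, the highest ratios in PC3 after scaling were those of RAB17 (log2 0.39), RAB43 (0.36) and RAB7A (0.22), and RAB24, RAB2B and RAB5A lay between 0.16 and 0.21. The lowest in PC3, besides RAB4A at -0.74, were RAB40B (-0.39), RAB3B (-0.35), RAB23 (-0.23), RAB2A (-0.20) and RAB20 (-0.17). In DU145, RAB30 at 0.95 was followed by RAB3B and RAB38 (both 0.27), RAB33B (0.25), RAB17 (0.22) and RAB7A (0.21). The lowest in DU145 after RAB7B were RAB3D (-0.48), RAB4A (-0.44), RAB1A (-0.40), RAB27A (-0.35) and RAB8B (-0.34). For RAB17, of polarised epithelial transport, the interval of the PC3 ratio (123 and 78 counts) took in 1, at 0.981 to 1.77, as did its halved-count interval in DU145, at 0.967 to 1.41. The intervals of RAB20 in PC3 (0.754 to 1.04) and RAB33B in DU145 (0.947 to 1.50) also took in 1. After counts were halved, so did those of RAB24, RAB2B, RAB40B and RAB2A in PC3 and of RAB38 in DU145. None of these ratios had a replicate in its line.

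The genes that load, switch and read RABs were described from lists chosen by known role. With circ0003553, 0 of 15 genes of RAB delivery and prenylation and 0 of 40 exchange factors were called (edgeR; 1 and 4 at an unadjusted p under 0.05; 0 and 0 with limma-voom and with DESeq2). Of 35 GTPase-activating proteins, 1 was higher and 0 lower, and of 50 tested effectors, 1 was higher and 0 lower. The background was 0.396% higher and 0.069% lower over all genes tested. With edgeR, 2 GTPase-activating proteins and 4 effectors had an unadjusted p under 0.05, and limma-voom and DESeq2 called 0 in both lists. List medians were -0.03, 0.07, 0.02 and 0.07 on the log2 scale in this order, against 0.003 over all genes tested.

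TBC1D4, a GTPase-activating protein for RAB10 and related RABs in glucose transporter traffic, had 1118 and 601 counts in PC3 and 1165 and 836 counts in DU145 (circ0003553 and control). It rose by 0.61 ± 0.11 on the log2 scale (n = 2 libraries per plasmid; edgeR adjusted p = 0.028), with the circ0003553 library higher in both lines. MYO5B, the myosin motor that RAB11 recruits to recycling endosomes, had 454 and 148 counts in PC3 and 925 and 651 counts in DU145. It rose by 0.92 ± 0.17 (edgeR adjusted p = 0.0205), again higher in both lines. For TBC1D4 the adjusted p was 0.151 with DESeq2, 0.215 with limma-voom, 0.0663 with legacy dispersions and 0.474 without a filter. For MYO5B these values were 0.359, 0.326, 0.0675 and 0.651, and 0.0613 with halved counts. Neither call held without the line block.

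The second comparison set PC3 against DU145 over both plasmids, in the same fit, with 2 libraries per line. Of 55 members tested, 19 were higher and 21 were lower in PC3, against a background of 33.1% higher, 32.8% lower and 65.9% in either direction over all genes tested. The members' shares, 34.5% and 38.2%, were near that background. At 2-fold or more, 6 members were higher in PC3 (background 18.7%) and 13 were lower (background 19.0%). Among the lower members, RAB38, RAB7B, RAB39B and RAB40A passed the low-count filter through DU145, and among the higher members RAB36 passed it through PC3. Nothing about RAB genes is read from these counts. The libraries of the lines did not overlap for 21 members higher in PC3 (background 40.9%) and 26 higher in DU145 (background 41.0%). The median log2 fold change was -0.07 over the members and 0.00 over all genes tested. Because each line is a single established line, these differences describe these lines and no wider group. Of the 40 calls, 26 held in every setting tried on the full gene set.

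**Figure D3:**
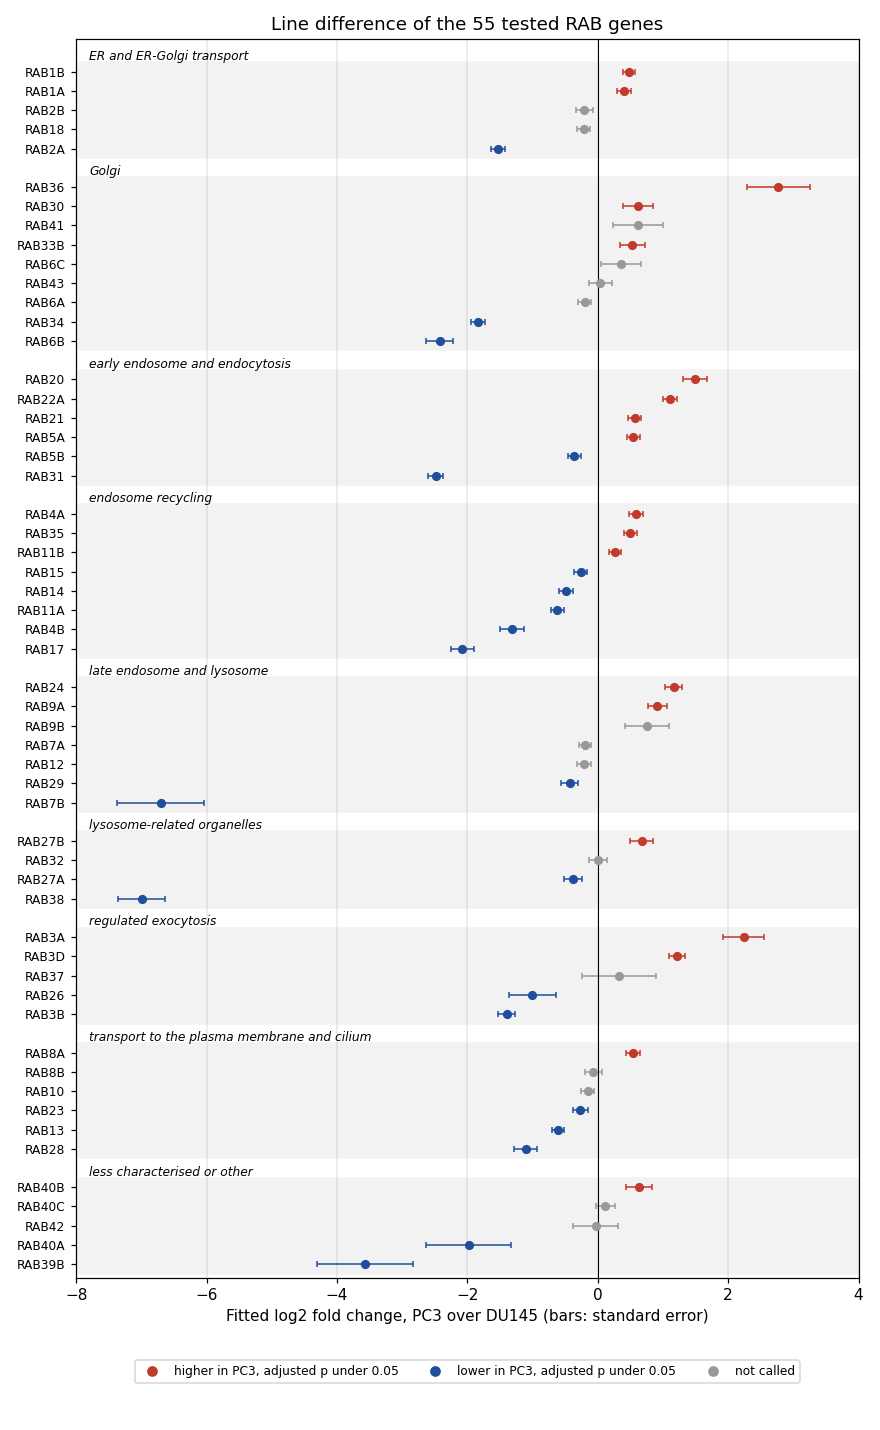
Fitted log2 fold change of PC3 over DU145 (x axis) for the 55 tested RAB genes, grouped by role, with bars for the standard error (n = 2 libraries per line). RAB38 and RAB7B lie near -7.00 and -6.70, and the early endosome genes are spread from -2.49 (RAB31) to 1.49 (RAB20).

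In transport between the endoplasmic reticulum and Golgi, 2 of 5 tested members were higher in PC3 and 1 was lower. The background was 33.1% higher and 32.8% lower over all genes tested. RAB2A (chromosome 8), which tethers vesicles at the Golgi and late endosomes, had 640 and 614 counts in PC3 and 1825 and 2078 counts in DU145. Both PC3 libraries were below both DU145 libraries, and RAB2A fell by 1.53 ± 0.11 (edgeR adjusted p = 1.51e-08). RAB2B did not pass the test (-0.21 ± 0.13, adjusted p = 0.168). RAB1A and RAB1B were higher in PC3, by 0.41 ± 0.11 and 0.48 ± 0.10 (adjusted p = 0.00439 and 0.00044), and the RAB1A call was lost without the DU145 circ0003553, the PC3 circ0003553 or the PC3 control library (adjusted p = 0.0716 to 0.152).

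Among the Golgi RABs, 3 of 9 tested were higher in PC3 and 2 were lower, beside 33.1% and 32.8% of all genes tested. RAB34, which acts in Golgi positioning and cilium formation, had 690 and 586 counts in PC3 and 2247 and 2677 counts in DU145 and fell by 1.84 ± 0.11 (adjusted p = 1.65e-09). RAB6B, the RAB6 paralog best known from neurons, had 85 and 57 counts in PC3 and 360 and 462 counts in DU145 and fell by 2.42 ± 0.20 (adjusted p = 7.57e-08). RAB6A did not pass the test (-0.20 ± 0.10, adjusted p = 0.0776), but with total-count scaling it was called lower in PC3 (-0.27, adjusted p = 0.0172). RAB36, a close relative of RAB34, went the other way with 54 and 43 counts in PC3 and 8 and 7 counts in DU145, and its fitted change was 2.77 ± 0.49 (adjusted p = 0.000144). RAB30 was 0.62 ± 0.23 higher in PC3 (adjusted p = 0.0265), but 0.18 (adjusted p = 0.46) without the DU145 control library, 0.62 (0.176) without the PC3 circ0003553 library and 0.60 (0.181) without the PC3 control library. RAB30 was also not called by limma-voom (adjusted p = 0.072) or DESeq2 (0.26), without a filter on low counts (0.102) or without the plasmid as a term (0.0887).

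Of the 6 early endosome genes, 4 were higher and 2 lower in PC3, where 65.9% of all genes tested were called in either direction. RAB31, also called RAB22B, which carries cargo from the trans-Golgi network to endosomes, had 675 and 510 counts in PC3 and 3157 and 3998 counts in DU145. It fell by 2.49 ± 0.12 (adjusted p = 1.52e-10), which is 5.61-fold. RAB22A, its closest relative, had 2634 and 2144 counts in PC3 and 1170 and 1206 counts in DU145. RAB22A was higher in PC3 by 1.11 ± 0.10 (adjusted p = 2.3e-07). RAB20, of endosomes and phagosomes, had 320 and 301 counts in PC3 and 116 and 122 counts in DU145 and was higher by 1.49 ± 0.18 (adjusted p = 4.7e-06). RAB5A, the main organiser of early endosome fusion, and RAB21, of integrin traffic, were higher in PC3 by 0.55 ± 0.10 and 0.57 ± 0.10, and RAB5B had a fitted -0.36 ± 0.10 (adjusted p = 0.00516). Without the PC3 circ0003553 library RAB5B was at -0.40 (adjusted p = 0.0578), and without the PC3 control library at -0.31 (0.132).

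Of 8 recycling RABs tested, 3 were higher and 5 lower in PC3, beside 33.1% and 32.8% of all genes tested, and the calls of RAB4A, RAB11B and RAB15 did not hold in every setting. RAB17 had 123 and 78 counts in PC3 and 467 and 429 counts in DU145 and fell by 2.08 ± 0.18 (adjusted p = 9.16e-08). RAB4B fell by 1.31 ± 0.18 (adjusted p = 1.4e-05), and its exons overlap the read-through genes RAB4B-EGLN2 and MIA-RAB4B. RAB4A was higher in PC3 by 0.59 ± 0.11 (adjusted p = 0.000305), but by 0.41 (0.15) without the DU145 circ0003553 library and by 0.20 (0.424) without the PC3 control library. RAB11A fell by 0.62 ± 0.10 and RAB14 by 0.49 ± 0.10 (adjusted p = 8.38e-05 and 0.00065), while RAB11B and RAB35 were higher by 0.26 ± 0.10 and 0.50 ± 0.10. The RAB11B call was lost without the DU145 circ0003553, the PC3 circ0003553 or the PC3 control library (0.22, 0.31 and 0.23; adjusted p = 0.0961, 0.114 and 0.249). RAB11B also missed the threshold with total-count scaling (0.19, adjusted p = 0.0899), without a filter on low counts (0.0574) and with DESeq2 (0.0512).

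Of the late endosome and lysosome RABs, 2 of 7 were higher and 2 lower, beside 33.1% and 32.8% of all genes tested. RAB24, known from autophagy, had 858 and 616 counts in PC3 and 362 and 337 counts in DU145 and was higher by 1.16 ± 0.13 (adjusted p = 1.86e-06). RAB9A, which returns receptors from late endosomes to the Golgi, had 511 and 449 counts in PC3 and 259 and 289 counts in DU145 and was higher by 0.91 ± 0.15 (adjusted p = 5.99e-05). RAB7B, with 2 counts in all in PC3, had 274 in all in DU145, a DU145 to PC3 ratio of 127.7 with a 95% counting interval of 35.0 to 1059.5. RAB7A and RAB12 did not pass the test (-0.19 ± 0.09 and -0.21 ± 0.10), but with total-count scaling both were called lower in PC3 (-0.27 and -0.28, adjusted p = 0.0167 and 0.0284). RAB7A was also called without the DU145 control library (-0.30, adjusted p = 0.0387).

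RABs of lysosome-related organelles and secretion differed by gene. RAB38, which with RAB32 builds melanosomes and related organelles, had 2 and 4 counts in PC3 and 449 and 399 counts in DU145. Both PC3 libraries were far below both DU145 libraries. Its DU145 to PC3 ratio was 131.7, with a 95% interval of 60.3 to 359.9 and of 44.9 to 642.7 from halved counts. RAB32 did not pass the test, with 470 and 389 counts in PC3 and 432 and 487 counts in DU145 and a fitted 0.01 ± 0.14 (adjusted p = 0.974). The melanocyte marker PMEL was 0.675 and 0.713 RPKM in PC3 and 0.886 and 0.782 RPKM in DU145, and MLANA was at most 0.125 RPKM in any library. RAB27A and RAB27B, which drive granule and exosome secretion, had fitted values of opposite sign at -0.38 ± 0.13 and 0.67 ± 0.18 (adjusted p = 0.0209 and 0.0043). The RAB27B value without the PC3 circ0003553 library was 0.64 (adjusted p = 0.0585), and RAB27A was -0.21 to -0.39 (0.152 to 0.223) without the DU145 control, PC3 circ0003553 or PC3 control library. DESeq2 called neither gene (adjusted p = 0.192 for RAB27A and 0.113 for RAB27B), and RAB27A was not called without a filter on low counts (0.0712), so neither call held in every setting.

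In regulated exocytosis, RAB3A, the synaptic vesicle RAB, had 121 and 113 counts in PC3 and 31 and 22 counts in DU145 and was higher by 2.24 ± 0.31 (adjusted p = 1.63e-05). RAB3D, of secretory granules, had 1827 and 1560 counts in PC3 and 638 and 958 counts in DU145 and was higher by 1.21 ± 0.12 (adjusted p = 6.46e-07). RAB3B went the other way with 1606 and 1710 counts in PC3 and 4973 and 4421 counts in DU145, a fall of 1.39 ± 0.13 (adjusted p = 2.36e-07). The neuronal secretory marker SNAP25 was 0.0453 and 0.0713 RPKM in PC3 and 0.694 and 0.673 RPKM in DU145, and SYN1, CHGA and SYP were at most 0.438 RPKM, and their part in these differences was not tested.

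Among RABs of transport to the plasma membrane and cilium, 1 of 6 was higher and 3 were lower in PC3. The shares over all genes tested were 33.1% and 32.8%. RAB13 fell by 0.61 ± 0.10 (adjusted p = 6.12e-05), on 10512 and 9250 counts in PC3 and 14547 and 18102 counts in DU145. RAB13 shared 6.95% of its 100-base windows with AC034102.1, at another locus. RAB28, a farnesylated ciliary RAB, had 155 and 129 counts in PC3 and 304 and 352 counts in DU145 and fell by 1.10 ± 0.18 (adjusted p = 6.17e-05). RAB8A was higher by 0.54 ± 0.11 (adjusted p = 0.000388). Among the remaining genes, RAB40B, of a subfamily that serves ubiquitin ligases, was higher by 0.63 ± 0.20 (adjusted p = 0.0116), with 0.60 (0.0531) without the DU145 control and 0.44 (0.191) without the PC3 control library, and DESeq2 gave an adjusted p of 0.205. RAB39B had 6 counts in all in PC3 and 78 in DU145, a DU145 to PC3 ratio of 12.1 (95% interval 5.32 to 34.0), and RAB40A 9 and 39 counts, a ratio of 4.04 (1.92 to 9.48). The call of RAB40A as lower in PC3 was lost with DESeq2 (adjusted p = 0.242) and in edgeR without a filter on low counts (0.0714). Called members without values above, RAB15, RAB23, RAB26, RAB29 and RAB33B, each lost the call in at least 1 setting. The 15 members not called ranged from -0.21 to 0.75 on the log2 scale.

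Close paralogs were then compared as shares of their group's summed RPKM, as a description with no test. Of 16 groups, 12 had the same leading gene in all 4 libraries and 3 had a leader that differed between the lines. RAB22A made up 70.1% and 71.7% of the RAB22A and RAB31 pair in PC3 and 18.2% and 15.4% in DU145. RAB3D held 68.3% and 64.4% of the RAB3 genes in PC3, whereas RAB3B held 70.6% and 60.1% in DU145. RAB2B led its pair in PC3 with 62.7% and 55.9%, and RAB2A led in DU145 with 62.9% and 63.3%. The remaining group, RAB39A and RAB39B, changed leader between the PC3 libraries at a summed level as low as 0.1 RPKM. RAB4A kept 93.1% and 95.5% of the RAB4 pair in PC3 and 79.2% and 84.4% in DU145, lower with circ0003553 in each line.

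**Figure D4:**
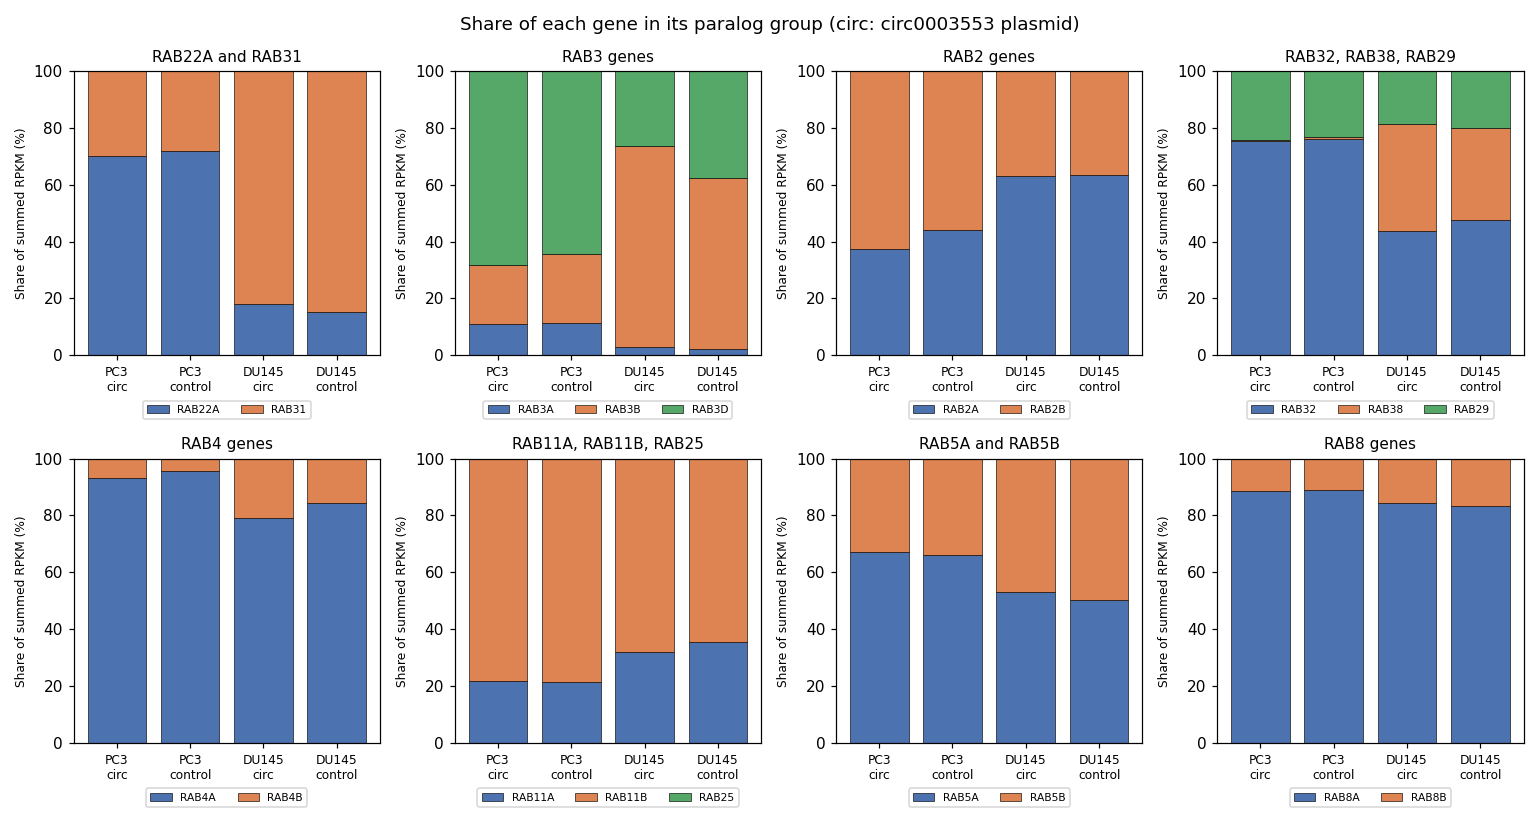
Share of the summed RPKM (y axis, %) taken by each gene of 8 paralog groups in the 4 libraries, 1 bar per library with no error bars. RAB22A holds 70.1% and 71.7% of its pair in PC3 but 18.2% and 15.4% in DU145, and the RAB3 and RAB2 groups also change leader between the lines.

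Each member's line difference was set beside the median of its 10 nearest tested neighbours on the chromosome, 5 on each side. Other members and genes sharing the member's exon bases were left out of these neighbours. The neighbours described above for RAB4A and RAB7B were taken without leaving such genes out. Over the 55 tested members, Pearson's r was 0.14 and Spearman's rho 0.36, a description across genes. Of the 40 members called between the lines, 25 had the same sign as their neighbours' median. All 10 neighbours had a fitted value below 0 for RAB34 (median -2.09), RAB13 (-1.51), RAB14 (-0.81) and RAB11A (-0.79), as did the genes themselves. RAB6B had 8 of 10 such neighbours (median -1.96). By contrast, RAB17 was lower in PC3 while 9 of its 10 neighbours were above 0 (median 3.11), and RAB38 and RAB31 lay among neighbours with medians of -0.09 and -0.08. Copy number was not measured here, and its part in these differences was not tested.

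**Figure D5:**
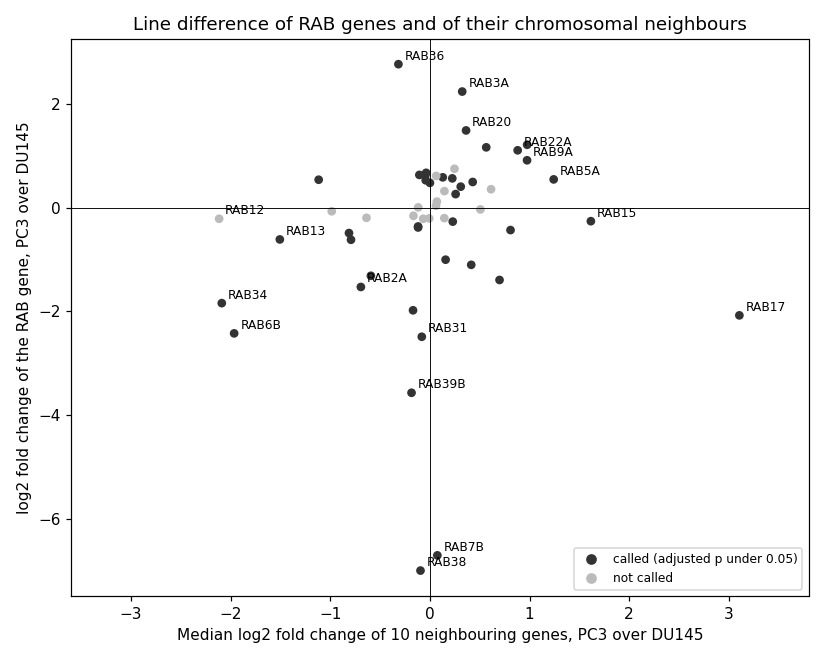
Median fitted log2 fold change of the 10 nearest tested neighbours (x axis) against that of the RAB gene (y axis), PC3 over DU145, with 1 point per tested member (n = 55). Other members and genes sharing the member's exon bases were left out of the neighbours. RAB34 and RAB6B lie low with their neighbours, RAB17 lies low against neighbours at 3.11, and RAB38 and RAB7B lie low beside neighbours near 0.

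Of 140 tested genes on the lists of RAB regulators and effectors, 51 were higher in PC3 (36.4%) and 52 lower (37.1%), beside a background of 33.1% and 32.8% of all genes tested, so the lists together stood near the background. Of the delivery and prenylation genes, 8 of 15 were higher in PC3 and 2 were lower, with a list median of 0.33 against 0.00 over all genes tested. GDI2, a GDP dissociation inhibitor, had 3944 and 3499 counts in PC3 and 9394 and 10404 counts in DU145 and fell by 1.31 ± 0.10 (adjusted p = 1.73e-08). CHML, a RAB escort protein for prenylation, was higher by 1.39 ± 0.11, and RABGGTA and RABGGTB, the subunits of the RAB prenyltransferase, by 0.61 ± 0.15 and 0.73 ± 0.11. RABGGTA was at 0.54 (adjusted p = 0.0598) without the PC3 control library. ARL6IP5, of the prenylated RAB acceptor family, fell by 2.14 ± 0.13.

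Among exchange factors, 12 of 40 were higher in PC3 (30.0%) and 17 lower (42.5%), with a list median of -0.07, beside the same background of 33.1% and 32.8%. DENND2A, a DENN-domain exchange factor, had 2863 and 2317 counts in PC3 and 31 and 50 counts in DU145 and was higher by 6.10 ± 0.17 (adjusted p = 3.87e-13). DENND1C, of the RAB35-activating DENND1 genes, had 11 and 4 counts in PC3 and 1187 and 1193 counts in DU145 and fell by 7.20 ± 0.23 in the fit (adjusted p = 2.01e-12). With so few counts in PC3, DENND1C passed the low-count filter through DU145. DENND2D had 6 and 4 counts in PC3 and 355 and 392 counts in DU145. The other named exchange factors were SH3BP5L (2.06), TRAPPC9 (1.67) and RGP1 (1.34) above 0, and DENND4B (-1.32) and DENND1A (-1.27) below 0 on the log2 scale.

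Of the GTPase-activating proteins, 14 of 35 were higher in PC3 (40.0%) and 13 lower (37.1%), again beside 33.1% and 32.8% of all genes tested, with a list median of -0.06. TBC1D2, which acts on RAB7, had 107 and 112 counts in PC3 and 1874 and 1751 counts in DU145 and fell by 3.94 ± 0.15 (adjusted p = 1.53e-11). USP6NL, which acts on RAB5, fell by 2.01 ± 0.13, RABGAP1L by 2.09 ± 0.12 and TBC1D10C by 2.55 ± 0.39. TBC1D8 (1.59), TBC1D16 and TBC1D31 (both 1.30) and EVI5L (1.20) were the highest in PC3.

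Of 50 tested effectors, 17 were higher in PC3 (34.0%, background 33.1%) and 20 lower (40.0%, background 32.8%), with a list median of -0.09. MLPH, which joins RAB27A on melanosomes to myosin, had 4834 and 4414 counts in PC3 and 520 and 426 counts in DU145 and was higher by 3.40 ± 0.13 (adjusted p = 1.45e-11). MYRIP, another link from RAB27A to myosin, fell by 2.76 ± 0.29, and UNC13D, the RAB27A effector of granule fusion, was higher by 2.06 ± 0.21. RAB11FIP1, which binds RAB11 on recycling endosomes, had 882 and 650 counts in PC3 and 5059 and 5347 counts in DU145 and fell by 2.67 ± 0.11 (adjusted p = 2.03e-11). OPTN, which binds RAB8, fell by 2.10 ± 0.10, and APPL2, an early endosome effector, was higher by 1.34 ± 0.12. The RAB3 effectors RIMS2 and RIMS1 went opposite ways, RIMS2 with 42 and 34 counts in PC3 and 736 and 632 counts in DU145, RIMS1 with 39 and 18 counts in PC3 and 0 in both DU145 libraries.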

How the data were processed

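Per the labels' protocols, total RNA was depleted of ribosomal RNA, made into strand-specific libraries with unique molecular identifiers and sequenced in pairs. The deposited tables hold, for each gene, an unnormalised count and an RPKM value, the RPKM being the counts divided by gene length and library total (recomputed to within a relative difference of 1e-09). The submitters' processing notes list edgeR 3.12.1, Subread 1.5.1, featureCounts, Trimmomatic 0.36 and hg38, without roles. No source used here names the aligner, the strand setting or any collapsing of molecular identifiers. Columns carrying NC in their names were taken as the control and those carrying RCAN3 as the overexpression plasmid.

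The deposited counts were fitted with edgeR 4.0.16 in R 4.3.3 (quasi-likelihood test, TMM scaling, low-count filter by plasmid, 21731 genes tested), with line and plasmid as terms and 1 residual degree of freedom. Called genes had a Benjamini-Hochberg adjusted p under 0.05 over all genes tested. The line pairs the libraries, since both libraries of a line come from the same cell line. With 1 library per group, that residual degree of freedom holds any difference between the lines in response to the plasmid, together with technical spread. The fit joins it with a variance estimate shared across genes, weighted as 13.4 degrees of freedom. The p-values therefore rest mostly on the shared estimate and do not measure the spread between replicates of a group. Within-line ratios used TMM-scaled counts with a prior count of 2 for log2 values and exact binomial (Clopper-Pearson) 95% intervals, which cover counting error only.

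Alternatives were total-count scaling, DESeq2 size factors, no low-count filter, legacy dispersions, halved counts, genes sharing no exon base, no line block, limma-voom (limma 3.58.1), DESeq2 1.42.0, a prior count of 0.5, counts per kilobase scaled by TMM, and each library left out. Exon overlaps are those of the deposited table, and shared 100-base windows came from GENCODE transcripts. The members, lists and tests were chosen with earlier results of these data known. Named in full were members called with the plasmid, the 12 highest and 12 lowest line differences at a mean log2 CPM of at least 1, the 6 highest and 6 lowest ratios within a line at 200 counts or more, the 10 highest mean RPKM, and up to 4 genes per list and direction. RAB36, RAB39B and other members outside the rule were named after their values were seen.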

Additional observations from a re-analysis of the deposited data

Results flagged for a closer look

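3 RAB genes moved in opposite directions with the circ0003553 plasmid in the 2 lines, with counting intervals that left out 1 in both, also after counts were halved. They were 3 of 48 RAB genes with at least 50 counts in each line (6.25%), beside 552 of 15868 genes by the same rule (3.48%), and nothing particular to RAB genes is read from this count. In each case the difference between the lines was not tested, since each line had 1 library per plasmid. RAB3B, of regulated exocytosis, had a log2 ratio of circ0003553 to control of -0.35 in PC3 (1606 and 1710 counts) and 0.27 in DU145 (4973 and 4421 counts). RAB8A, of exocytic and ciliary transport, had 0.12 in PC3 (8503 and 6528 counts) and -0.24 in DU145 (4908 and 6205 counts). RAB43, a Golgi RAB, had 0.36 in PC3 (381 and 246 counts) and -0.33 in DU145 (277 and 374 counts). RAB43 shares 79.3% of its length with ISY1-RAB43, which had 6191 and 5367 counts in PC3 and 4502 and 4932 counts in DU145. RAB8A shares 37.8% of its length with CTD-2231E14.8, which had 3095 and 2104 counts in PC3 and 1995 and 2152 counts in DU145.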

How the results depend on the processing

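The count of 2 members called with the plasmid was also 2 with total-count scaling, DESeq2 size factors and halved counts. Among genes sharing no exon base the count was 0, but RAB4A shares exon bases and was not among the 28 members tested there. The count was also 0 without a filter on low counts, with legacy dispersions, with limma-voom, with DESeq2 and with no replicate block. The block thus changed the plasmid calls, and 0 of all 21731 genes were called without it. Leaving out a library from the plasmid fit leaves no residual degrees of freedom, so the within-line ratios stand in its place. The count of 40 line calls was 20 of 28 members tested among genes sharing no exon base, where fewer genes were tested, 28 to 36 with each library left out in turn (the lone library of a line is then assumed to vary like the pair of the other line), and 29 to 42 under the other settings. Without the plasmid term (no replicate block) it was 37. Total-count scaling gave 17 higher and 25 lower in PC3. RAB7A within DU145 moved from 0.21 to 0.16 with total-count scaling. No named value reversed in any setting run. Depth limits RAB38, RAB7B and RAB39B in PC3, and 6 members were not testable.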
